A study of Mus musculus with 14 samples.

Results

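The genes described are the nuclear genes for subunits of respiratory complexes II to V, the part of the mitochondrial respiratory chain from succinate dehydrogenase to ATP synthase, in hearts of mouse embryos with mutations of Irx3 and Irx5. They were taken from the array's gene symbols as Sdha to Sdhd, Cyc1, every symbol that starts with Uqcr, every symbol that starts with Cox4 to Cox8, and every symbol that starts with Atp5, with the brightest probe set kept for each gene. This gave 47 genes among the 19931 named genes measured, of which 4 belonged to complex II, 9 to complex III, 17 to complex IV and 17 to complex V. Cox7c, a further subunit of complex IV, was not among them, because its 3 probe sets each carried 2 gene symbols. The hearts came from embryos at E12.5 (the embryonic day), with 14 arrays in 4 genotype groups. They were 4 arrays of Irx3-/-;Irx5-/- hearts, called double-mutant hearts below, 4 of Irx3-/-;Irx5+/- hearts, 3 of Irx5-/- hearts and 3 of Irx5+/- hearts, which the series text names as its reference. Every group thus lacked at least 1 working copy of Irx5, and the labels do not describe how the alleles were made. All values are log2 signals from RMA, a method that corrects background, equalises the arrays and summarises the probes of a probe set, and differences are log2 differences between group means ± the standard error (SE) of a limma fit over all genes.

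Electrons from succinate enter the chain at complex II, which is also an enzyme of the tricarboxylic acid cycle. Complex III passes electrons from ubiquinol to cytochrome c, complex IV (cytochrome c oxidase) passes them to oxygen, and complex V (ATP synthase) uses the proton gradient that results to make ATP. Several small subunits of complex IV exist as a general isoform and as a form that is typical of heart and skeletal muscle, and the muscle-type forms Cox6a2, Cox7a1 and Cox8b become more prominent as the heart matures. The heart is rich in mitochondria, and genes of these complexes are known targets of the nuclear respiratory factor NRF1, of ETS-family factors such as GABPA and of the estrogen-related receptors (ERR).

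Promoter windows were read for 35 of the 47 genes from RefSeq sequence of build GRCm38.p6, each from 250 bases before to 50 bases after the start of the gene. Both strands were searched for 3 short motifs. The ERR half-site AAGGTCA was present in the windows of 5 of the 35 genes (14.3%), against 5.38% of the 27025 genes with a window. The NRF1 core GCGCATG was present for 8 of the 35 genes (22.9%), against 4.41% of all genes. The ETS core CCGGAAG, which was added after the other results were seen, was present for 13 of the 35 genes (37.1%), against 9.93% of all genes. Atp5k and Atp5l, genes for small membrane subunits of ATP synthase, held all 3 motifs. In Atp5k only the NRF1 core lay within the 250 bases before the start that are printed below. Its ERR and ETS matches lay in or reached into the 50 bases after the start. Motifs did not divide muscle-type from general isoforms of complex IV. Of the general-isoform genes, Cox7a2 and Cox7b held none of the 3 motifs, Cox6b1 and Cox8a held the ETS core, and Cox4i1 had no window. The muscle-type gene Cox6a2 had no window either. These matches describe letters in the windows and say nothing of binding. The 250 bases before the start are given for 2 muscle-type genes without any of the motifs, Cox7a1 at chr7:30183921-30184170 on the plus strand and Cox8b at chr7:140900447-140900696 on the minus strand, for the general-isoform gene Cox6a1 at chr5:115348959-115349208 on the minus strand, and for Atp5k, the gene with the lowest p in 4 of the comparisons below, at chr5:108434400-108434649 on the minus strand. Each is written 5′ to 3′, and capitals mark the NRF1 core, which runs on both strands in an overlapping pair, and in Cox6a1 also the ETS core read on the opposite strand.
Cox7a1: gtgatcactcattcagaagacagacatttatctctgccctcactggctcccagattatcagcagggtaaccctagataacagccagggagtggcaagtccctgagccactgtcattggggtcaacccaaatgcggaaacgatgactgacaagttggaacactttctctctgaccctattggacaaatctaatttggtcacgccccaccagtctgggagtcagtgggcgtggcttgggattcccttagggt
Cox8b: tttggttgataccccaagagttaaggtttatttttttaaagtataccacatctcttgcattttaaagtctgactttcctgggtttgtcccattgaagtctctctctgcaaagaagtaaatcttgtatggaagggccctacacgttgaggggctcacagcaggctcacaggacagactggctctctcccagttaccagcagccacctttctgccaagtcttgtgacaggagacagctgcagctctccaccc
Cox6a1: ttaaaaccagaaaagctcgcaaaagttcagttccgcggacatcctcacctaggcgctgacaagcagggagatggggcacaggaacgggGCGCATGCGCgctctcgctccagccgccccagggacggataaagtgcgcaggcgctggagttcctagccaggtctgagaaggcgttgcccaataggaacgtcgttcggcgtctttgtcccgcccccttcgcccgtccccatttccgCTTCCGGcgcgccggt
Atp5k: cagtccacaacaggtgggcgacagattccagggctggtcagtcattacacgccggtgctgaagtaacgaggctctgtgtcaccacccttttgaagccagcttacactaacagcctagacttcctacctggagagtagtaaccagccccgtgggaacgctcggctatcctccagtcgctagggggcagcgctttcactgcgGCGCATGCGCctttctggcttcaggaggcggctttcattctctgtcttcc

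Array medians lay between 7.89 and 7.99. RMA equalises the arrays, so these medians do not show whether brightness differed before it. The 22 sarcomere genes used as cardiomyocyte markers all had means above the array medians, with averages from 9.18 for Tcap to 13.60 for Actc1. The Irx3 signal read 7.86, 7.69, 7.75 and 7.60 in the 4 double-mutant arrays, 7.87, 7.89, 7.93 and 8.17 in the 4 Irx3-/-;Irx5+/- arrays, 8.25, 8.14 and 8.19 in the 3 Irx5-/- arrays and 8.43, 8.53 and 8.44 in the 3 Irx5+/- arrays. In double-mutant hearts it was lower than in Irx5+/- hearts (log2 difference -0.74 ± 0.10, adjusted p = 0.0201 in limma). The Irx5 signal did not separate the groups (double mutant minus Irx5+/- -0.28 ± 0.18, adjusted p = 0.532). The array titled Irx3-/-;Irx5+/- replicate 4 is described as Irx5-/- in another of its labels, and at 8.17 its Irx3 signal was inside the Irx5-/- range. It was kept in the group of its title and genotype label, and results of that group are also given without it. The labels do not say whether arrays came from separate embryos, so p-values measure the spread between these samples only.

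In double-mutant hearts 45 of the 47 genes had higher mean signals than in Irx5+/- hearts (43.9% of all genes did), with a median log2 difference of 0.53 against -0.03 over all genes. No single gene passed the test: 0 of 47 had an adjusted p under 0.05 in limma, against 0.0201% of all genes, and the lowest adjusted p was 0.116, for Atp5k. At an unadjusted p under 0.05, 37 of the 47 were higher and 0 lower, where 7.9% of all genes were higher and 5.56% lower. For 29 of the 47, all double-mutant arrays exceeded all Irx5+/- arrays, a pattern that 6.48% of all genes showed. The count of 37 went down to 24 without double-mutant replicate 3 (7.32% of all genes) and to 18 without Irx5+/- replicate 3 (5.89% of all genes), and the median then read 0.47 and 0.41. The samples were bulk RNA of hearts, so a larger share of one cell type and more RNA per cell of that type cannot be told apart.

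**Figure D1:**
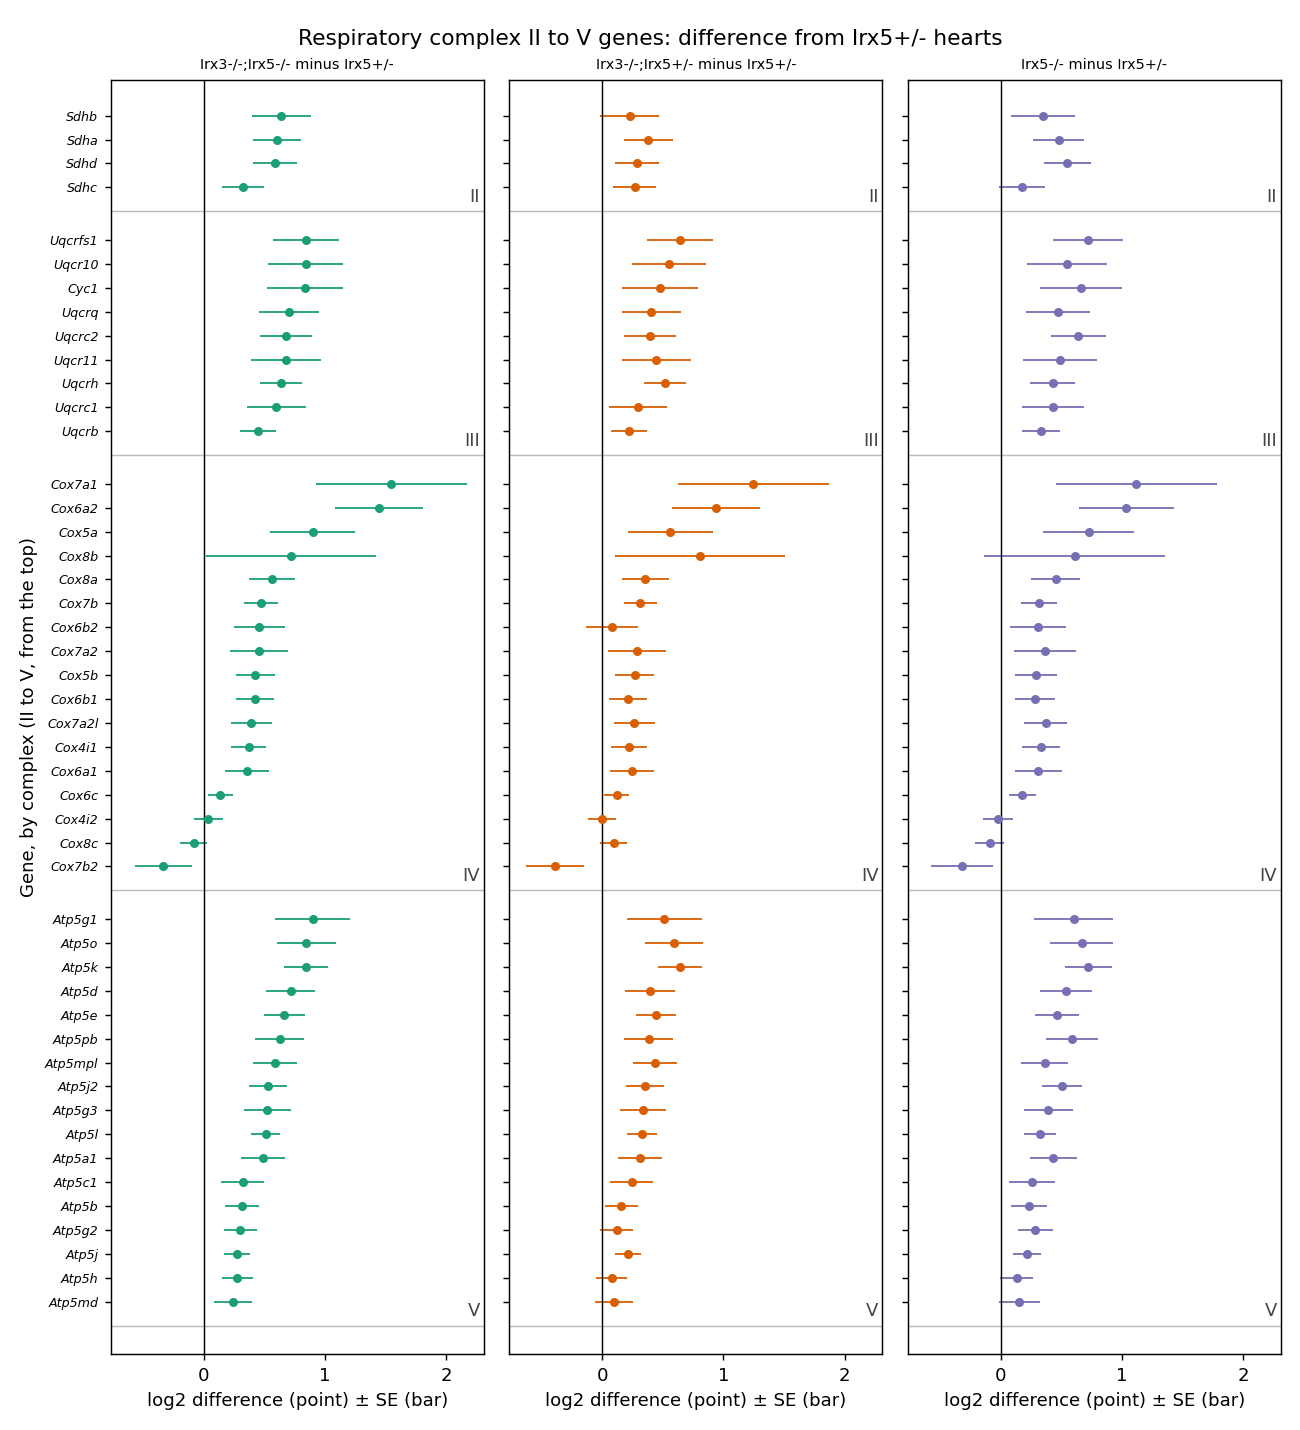
Log2 difference from Irx5+/- hearts (point) with its SE (bar) for each of the 47 genes, in panels for double-mutant, Irx3-/-;Irx5+/- and Irx5-/- hearts, with genes ordered within each complex by the double-mutant difference. Points lie right of the zero line for 45, 46 and 44 genes in the 3 panels, and Cox7a1 (1.55) and Cox6a2 (1.45) lie farthest right in double-mutant hearts.

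All 4 genes of complex II had positive differences in double-mutant hearts, with a median of 0.60, and 3 of the 4 had an unadjusted p under 0.05. For this and the next counts by complex, 7.9% of all genes were higher at such a p. Groups without overlap, with double-mutant arrays higher, were found for 6.48% of all genes. The genes were read from the same arrays, so counts over them are not independent. Sdhb (Entrez gene 67680), the iron-sulfur subunit that carries electrons within the complex, read 11.06, 11.19, 11.57 and 11.63 in double-mutant hearts and 10.88, 10.77 and 10.52 in Irx5+/- hearts. The groups did not overlap, and the difference was 0.64 ± 0.24 (adjusted p = 0.281). Sdha (gene 66945), the flavoprotein that oxidises succinate, read 11.81, 11.58, 11.96 and 11.99 in double-mutant hearts and 11.15, 11.51 and 11.03 in Irx5+/- hearts. Its lowest double-mutant array lay just above its highest Irx5+/- array, and the difference was 0.60 ± 0.20 (adjusted p = 0.22). The membrane anchor Sdhd had a difference of 0.59 and the other anchor, Sdhc, one of 0.32 with overlapping groups.

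Complex III had the highest median of the 4 complexes in double-mutant hearts, 0.68, and all 9 of its genes had an unadjusted p under 0.05. Their differences ran from 0.45 for Uqcrb, a small accessory subunit, to 0.85 for Uqcrfs1, and the groups did not overlap in 8 of the 9 genes. Uqcrfs1 (gene 66694), the Rieske iron-sulfur protein, read 10.56, 10.85, 11.14 and 10.94 in double-mutant hearts and 10.54, 9.93 and 9.62 in Irx5+/- hearts. The lowest double-mutant array exceeded the highest Irx5+/- array by a narrow margin, and the difference was 0.85 ± 0.27 (adjusted p = 0.211). Uqcr10 (gene 66152), a small subunit near the Rieske protein, read 10.94, 11.12, 11.65 and 11.41 in double-mutant hearts and 10.88, 10.62 and 9.83 in Irx5+/- hearts. Here Irx5+/- replicate 3 was far below the other arrays, and the difference of 0.84 ± 0.31 (adjusted p = 0.266) was 0.53 without it. Cyc1, which encodes cytochrome c1 and was the only complex III gene whose groups overlapped, had a difference of 0.84 ± 0.31 (adjusted p = 0.274).

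Complex IV held both the largest positive and the only negative differences of the 47 genes in double-mutant hearts. Its median was 0.43, with 15 of 17 genes above 0 and 10 of 17 at an unadjusted p under 0.05. Subunits with a single form or a general isoform lay between 0.14 for Cox6c and 0.90 for Cox5a, a subunit of the matrix side, and Cox4i1, the general form of the largest nuclear-encoded subunit, had a difference of 0.37. The muscle-type isoforms Cox7a1, Cox6a2 and Cox8b had differences of 1.55, 1.45 and 0.72, with a median of 1.45, against a median of 0.44 for the 6 general isoforms.

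All 17 complex V genes had positive differences in double-mutant hearts, with a median of 0.53 and 15 of 17 at an unadjusted p under 0.05. By position in the enzyme, the median was 0.49 for the 5 genes of the catalytic F1 head, 0.53 for the 3 genes of the rotor subunit c and 0.53 for the 9 genes of the stalk and membrane part. Atp5g1 (gene 11951), one of the genes that encode subunit c, read 11.23, 11.56, 11.88 and 11.60 in double-mutant hearts and 11.20, 10.68 and 10.14 in Irx5+/- hearts. The groups were separated by a small gap, and the difference was 0.90 ± 0.31 (adjusted p = 0.236). Atp5g2 and Atp5g3, which encode the same mature protein, had differences of 0.30 and 0.53.

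Atp5o (gene 28080), the stalk subunit that links the head to the membrane part, read 12.03, 12.24, 12.52 and 12.39 in double-mutant hearts and 11.95, 11.33 and 11.06 in Irx5+/- hearts. Its groups did not overlap, and the difference was 0.85 ± 0.24 (adjusted p = 0.171). Atp5k (gene 11958), subunit e of the membrane part, whose promoter holds the paired NRF1 core shown above, read 11.98, 12.14, 12.42 and 12.12 in double-mutant hearts and 11.64, 11.39 and 10.93 in Irx5+/- hearts. Every double-mutant array lay above every Irx5+/- array by a clear gap, and the difference was 0.85 ± 0.18 (unadjusted p = 0.000398, adjusted p = 0.116). The adjusted p of Atp5k moved between 0.0698 and 0.27 as single double-mutant or Irx5+/- arrays were left out. The catalytic subunits Atp5a1 and Atp5b had smaller differences of 0.49 and 0.32.

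**Figure D2:**
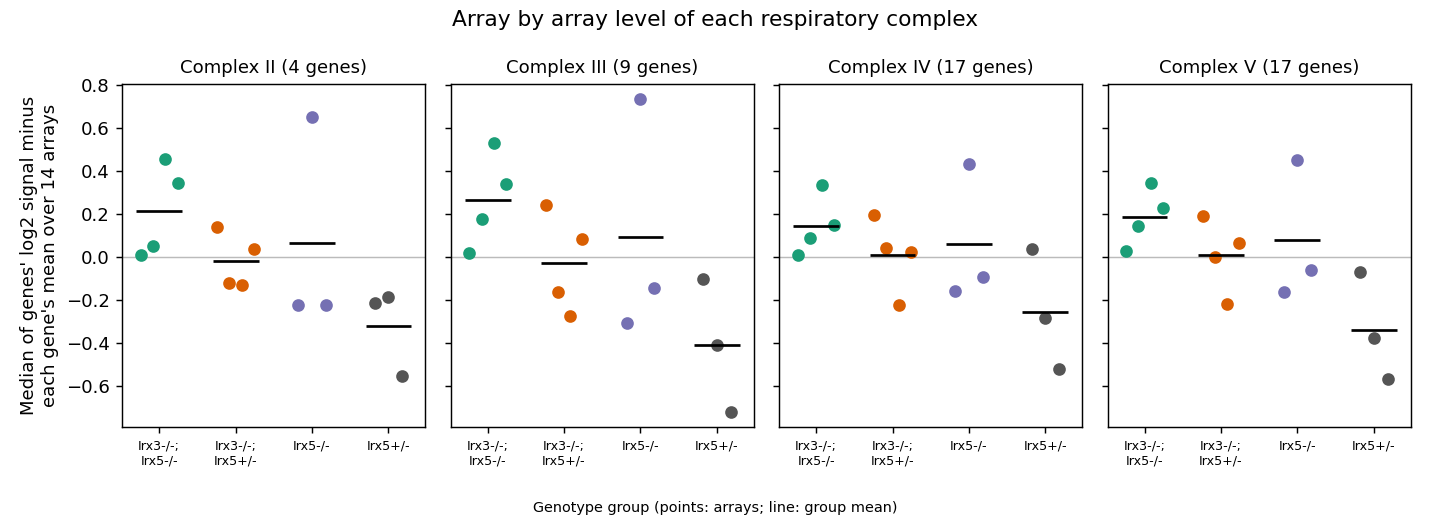
Median over the genes of each complex of the log2 signal minus the gene's mean over 14 arrays, 1 point per array and a line at the group mean, with double-mutant hearts at the left and Irx5+/- hearts at the right of each panel. In all 4 complexes Irx5+/- replicate 3 is lowest (-0.52 to -0.72) and Irx5-/- replicate 2 is highest (0.43 to 0.74).

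The muscle-type isoforms were set against their general counterparts within each array, which removes what both values of an array share. A change in the share of heart muscle cells need not cancel in such a ratio, as the muscle-type forms are typical of muscle. Cox6a2 (gene 12862), the muscle-type form of subunit 6a, read 10.56, 10.92, 10.86 and 10.64 in double-mutant hearts and 9.65, 9.57 and 8.68 in Irx5+/- hearts. These groups were well apart, with a difference of 1.45 ± 0.36 (adjusted p = 0.152). Its general counterpart Cox6a1 (gene 12861), whose promoter holds the NRF1 and ETS cores shown above, read 12.57, 12.60, 12.97 and 12.87 in double-mutant hearts and 12.67, 12.22 and 12.30 in Irx5+/- hearts. The Cox6a1 groups overlapped, and the difference was 0.36 ± 0.18 (adjusted p = 0.419).

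The log2 ratio of Cox6a2 to Cox6a1 was -2.01, -1.68, -2.11 and -2.23 in double-mutant hearts and -3.02, -2.65 and -3.62 in Irx5+/- hearts, and the groups did not overlap. It differed by 1.09 ± 0.30 (95% interval 0.42 to 1.75), and an exact 2-sided permutation test gave p = 0.0571, the smallest that 4 against 3 arrays allow. After adjustment over the 15 ratio comparisons made, 3 pairs in 5 contrasts, the p was 0.49. The same ratio had a difference from Irx5+/- hearts of 0.69 ± 0.30 in Irx3-/-;Irx5+/- hearts (exact permutation p = 0.114) and of 0.73 ± 0.32 in Irx5-/- hearts (exact permutation p = 0.2), with overlapping arrays in both. Without Irx5+/- replicate 3 these differences were 0.43 and 0.46, and the first was 0.61 without Irx3-/-;Irx5+/- replicate 4.

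Cox7a1 (gene 12865), the muscle-type form of subunit 7a, read 10.36, 10.99, 11.81 and 10.86 in double-mutant hearts and 10.96, 8.87 and 8.53 in Irx5+/- hearts. Irx5+/- replicate 1 lay among the double-mutant arrays and the other 2 far below, and the difference of 1.55 ± 0.62 (adjusted p = 0.302) ran from 1.09 without Irx5+/- replicate 3 to 2.30 without replicate 1. Its general counterpart Cox7a2 (gene 12866) read 11.77, 11.84, 12.19 and 11.89 in double-mutant hearts and 12.08, 11.13 and 11.19 in Irx5+/- hearts, again with replicate 1 among the double-mutant arrays. The Cox7a2 difference was 0.46 ± 0.24 (adjusted p = 0.436), with 0.29 without Irx5+/- replicate 2 and 0.76 without replicate 1. The log2 ratio of Cox7a1 to Cox7a2 differed by 1.09 ± 0.49 (95% interval -0.01 to 2.19, exact permutation p = 0.114, adjusted 0.49).

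Cox8b (gene 12869), the muscle-type form of subunit 8, varied widely between arrays of a group. It read 8.38, 8.83, 10.12 and 8.26 in double-mutant hearts and 9.71, 7.56 and 7.27 in Irx5+/- hearts, and the difference of 0.72 ± 0.70 was not distinguishable from 0 (adjusted p = 0.696). It was 0.27 without Irx5+/- replicate 3 and 1.48 without replicate 1. Cox8a (gene 12868), the general form, read 11.10, 11.26, 11.63 and 11.45 in double-mutant hearts and 10.93, 10.81 and 10.67 in Irx5+/- hearts. The Cox8a groups did not overlap, with a difference of 0.56 ± 0.19 (adjusted p = 0.236). The log2 ratio of Cox8b to Cox8a differed by 0.16 ± 0.66 (95% interval -1.31 to 1.62, exact permutation p = 0.8), and it was -0.23 without Irx5+/- replicate 3 and 0.86 without replicate 1. The 2 muscle-type genes whose promoters are printed above, Cox7a1 and Cox8b, thus had the widest array-to-array spread of the 47 genes, with SDs over all 14 arrays of 1.01 and 0.98, against 0.12 for Cox6c at the other end.

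**Figure D3:**
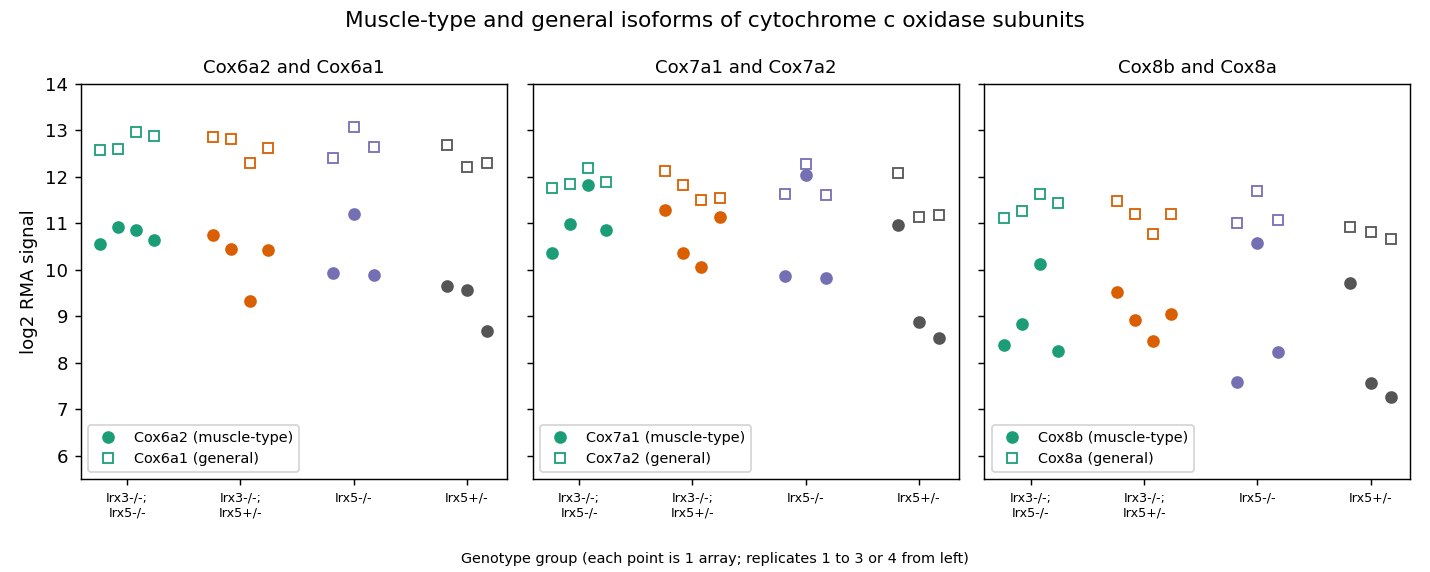
Log2 RMA signal of 3 muscle-type isoforms (filled circles) and their general counterparts (open squares) in each array, by genotype group, with replicates from left to right within a group. Cox6a2 separates double-mutant (10.56 to 10.92) from Irx5+/- arrays (8.68 to 9.65), while Cox7a1 and Cox8b overlap through Irx5+/- replicate 1. Signals of different probe sets are not on one scale, so the vertical distance between isoforms is not a ratio of RNA amounts.

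The 4 isoforms restricted to other tissues had differences on both sides of 0 in double-mutant hearts, from -0.33 for Cox7b2 to 0.46 for Cox6b2, with a median of -0.02 relative to Irx5+/- hearts. Cox4i2, known from the lung, averaged 8.37 ± 0.18 in double-mutant, 8.33 ± 0.19 in Irx3-/-;Irx5+/-, 8.31 ± 0.06 in Irx5-/- and 8.33 ± 0.03 in Irx5+/- hearts (SD, n = 4, 4, 3 and 3). Cox8c, known from the testis, averaged 7.50 ± 0.16, 7.68 ± 0.08, 7.49 ± 0.19 and 7.58 ± 0.10 in the same order of groups. Cox7b2 had the lowest signals of the 47 genes and averaged 5.05 ± 0.11, 4.99 ± 0.14, 5.06 ± 0.06 and 5.38 ± 0.74 in that order. Its negative difference in double-mutant hearts (-0.33 ± 0.24) went with 1 Irx5+/- array at 6.20, the other 2 being at 5.21 and 4.74. Cox6b2, also known from the testis, averaged 9.15 ± 0.39, 8.78 ± 0.15, 9.001 ± 0.06 and 8.69 ± 0.45, again in that order. Without these 4 and the 3 muscle-type isoforms, all 40 remaining genes had positive differences in double-mutant hearts, with a median of 0.55 and 34 of 40 at an unadjusted p under 0.05.

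Irx3-/-;Irx5+/- hearts addressed the loss of Irx3 where 1 Irx5 copy was left. Mean signals were above those of Irx5+/- hearts in 46 of 47 genes (50% of all genes), with a median difference of 0.31 against 0.00 over all genes. In limma 0 of 47 passed (0% of all genes did), and the lowest adjusted p was 0.814, for Atp5k. At an unadjusted p under 0.05, 10 genes were higher and 0 lower, against 2.85% of all genes higher and 2.22% lower. In 6 genes every Irx3-/-;Irx5+/- array exceeded every Irx5+/- array, against 2.86% of all genes. Medians by complex were 0.28 for II, 0.44 for III, 0.27 for IV and 0.33 for V, and the muscle-type isoforms had a median of 0.94. Atp5k read 12.13, 11.97, 11.77 and 12.00 in Irx3-/-;Irx5+/- hearts, all above the Irx5+/- arrays given before, with a difference of 0.64 ± 0.18. Cox6a2 read 10.75, 10.45, 9.32 and 10.43, with replicate 3 inside the Irx5+/- range and a difference of 0.94 ± 0.36 (adjusted p = 0.952), which was 0.63 without Irx5+/- replicate 3.

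The count of 10 for Irx3-/-;Irx5+/- hearts rested on single arrays. Without 1 Irx5+/- array at a time it was 26, 4 and 1 for replicates 1, 2 and 3, where 3.55%, 3.22% and 2.35% of all genes were higher. Without Irx3-/-;Irx5+/- replicate 1 it was 2 (2.23% of all genes), and without replicate 4, the array with conflicting labels, it was 6 (2.4% of all genes). Without replicate 3 it was 15 (3.31% of all genes). Leaving out Irx5-/- replicate 2, which enters only through the shared estimate of the spread, gave 19 (3.44% of all genes). Without replicate 4, 46 of 47 genes still had positive differences, with a median of 0.32. Over all arrays left out in turn the median lay between 0.18, without Irx5+/- replicate 3, and 0.46, without Irx5+/- replicate 1.

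Irx5-/- hearts addressed the loss of the second Irx5 copy in a group whose label names no Irx3 mutation. Mean signals were above those of Irx5+/- hearts in 44 of 47 genes (44.4% of all genes), with a median difference of 0.39 against -0.03 over all genes, and 0 of 47 passed in limma (0% of all genes did). Atp5k had the lowest adjusted p, 0.267. At an unadjusted p under 0.05, 15 genes were higher and 0 lower, against 5.99% of all genes higher and 4.66% lower. In 7 genes every Irx5-/- array exceeded every Irx5+/- array, against 6.71% of all genes. Medians by complex were 0.41 for II, 0.49 for III, 0.31 for IV and 0.39 for V, and that of the muscle-type isoforms was 1.04. The 3 genes with negative values were the tissue-restricted Cox4i2, Cox7b2 and Cox8c.

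A single array carried much of the Irx5-/- values. Cox7a1 read 9.87, 12.04 and 9.81, and Cox8b read 7.58, 10.57 and 8.23, in Irx5-/- replicates 1, 2 and 3. Replicate 2 was the highest of all 14 arrays for both genes. Sdhb read 10.65, 11.83 and 10.74 in the same arrays, and its difference of 0.35 ± 0.26 turned to -0.03 without replicate 2. That of Cox8b, 0.61 ± 0.75, turned to -0.28. Without replicate 2, 40 genes had positive differences, the median was 0.16 and 1 gene was higher at an unadjusted p under 0.05 in place of 15, where 4.34% of all genes were. That count was 27 without Irx5-/- replicate 1 (5.66% of all genes). It was 29, 7 and 1 without Irx5+/- replicates 1, 2 and 3, where 6.73%, 5.4% and 4.72% of all genes were higher, and without Irx5+/- replicate 3 the median was 0.26. The 3 comparisons with Irx5+/- hearts share their 3 Irx5+/- arrays, so the positive values in them are not independent of each other.

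Set against Irx3-/-;Irx5+/- and Irx5-/- hearts, double-mutant hearts had small positive differences. Against Irx3-/-;Irx5+/- hearts, 45 of 47 genes were above 0 (44.5% of all genes) with a median of 0.20 (-0.02 over all genes). In limma 0 of 47 passed (0.00502% of all genes did), and 0 had an unadjusted p under 0.05 in either direction, against 4.06% of all genes higher and 3.61% lower. The lowest adjusted p was 0.67, for Cox6b2, which read 9.37, 8.66, 9.54 and 9.03 in double-mutant hearts and 8.75, 8.63, 8.75 and 8.98 in Irx3-/-;Irx5+/- hearts, with overlapping arrays and a difference of 0.38 ± 0.20, which was 0.25 without double-mutant replicate 3. In 2 genes, Atp5l and Uqcrq, every double-mutant array exceeded every Irx3-/-;Irx5+/- array, against 2.64% of all genes. Without Irx3-/-;Irx5+/- replicate 4 the median was 0.21 and 44 genes were above 0, and without replicate 3 the median was 0.13.

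Against Irx5-/- hearts, 45 of 47 genes were above 0 in double-mutant hearts (52.8% of all genes) with a median of 0.13 (0.01 over all genes). In limma 0 of 47 passed (0% of all genes did) and 0 had an unadjusted p under 0.05 in either direction, against 1.5% of all genes higher and 2.13% lower. The arrays of both groups overlapped in all 47 genes, where 2.13% of all genes had every double-mutant array above every Irx5-/- array. Atp5l (gene 27425), subunit g of ATP synthase, had the lowest p. It read 12.03, 12.00, 12.07 and 12.04 in double-mutant hearts and 11.57, 12.17 and 11.83 in Irx5-/- hearts, so that the double-mutant arrays fell between Irx5-/- replicates 2 and 3, and the difference was 0.18 ± 0.12 (unadjusted p = 0.16). It was 0.04 without Irx5-/- replicate 1 and 0.34 without replicate 2. The median depended on which array was left out, and read 0.00 without Irx5-/- replicate 1, 0.04 without replicate 3 and 0.05 without double-mutant replicate 3, while without Irx5-/- replicate 2 it was 0.31 and 16 genes were higher at an unadjusted p under 0.05 (3.09% of all genes).

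The interaction asked whether Irx3 loss went with another difference where both Irx5 copies were gone, and was computed as double mutant minus Irx5-/- less Irx3-/-;Irx5+/- minus Irx5+/-. It was above 0 for 5 of 47 genes (50.3% of all genes) and below 0 for 42, with a median of -0.20 against 0.00 over all genes. In limma 0 of 47 passed (0% of all genes did), and 0 had an unadjusted p under 0.05, against 1.89% of all genes above 0 and 2.16% below it. The lowest p was again that of Atp5k, with -0.52 ± 0.26 (unadjusted p = 0.061, adjusted p = 1), and it was -0.33 without Irx5+/- replicate 3. The interaction takes the Irx5+/- arrays with a positive sign, so it shares them with the comparisons above.

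In several arrays nearly all of the 47 genes stood on one side of their own means, while other arrays were mixed. In double-mutant replicate 3 and Irx3-/-;Irx5+/- replicate 1, 46 of 47 genes were above their own mean over all arrays, and in Irx5-/- replicate 2 it was 45. In Irx3-/-;Irx5+/- replicate 3 it was 3, and in Irx5+/- replicates 2 and 3 it was 3 and 1. Mixed arrays were double-mutant replicate 1 with 27 of 47 genes above, Irx3-/-;Irx5+/- replicate 2 with 23 and Irx5+/- replicate 1 with 19. The median over the 47 genes of the signal minus each gene's mean was 0.02, 0.14, 0.36 and 0.25 in double-mutant arrays, 0.19, 0.00, -0.22 and 0.05 in Irx3-/-;Irx5+/- arrays, -0.17, 0.48 and -0.10 in Irx5-/- arrays, and -0.07, -0.35 and -0.57 in Irx5+/- arrays. Double-mutant arrays were thus all above Irx5+/- arrays on this measure, while the other groups overlapped with both.

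Cardiomyocyte markers moved with these values. The mean of the 22 sarcomere genes ran from 11.86 to 12.37 in double-mutant arrays, from 11.28 to 12.11 in Irx3-/-;Irx5+/- arrays, from 11.42 to 12.49 in Irx5-/- arrays and from 10.01 to 11.84 in Irx5+/- arrays. All 22 had positive differences in double-mutant hearts (43.9% of all genes did), with a median of 1.22. At an unadjusted p under 0.05 in limma, 21 of 22 were higher, against 7.9% of all genes. The medians of the 22 were 0.92 in Irx3-/-;Irx5+/- and 0.94 in Irx5-/- hearts. Myl7, the atrial myosin light chain, had 1.57 ± 0.33 (adjusted p = 0.111) and Tnni1, the slow skeletal troponin I of the embryonic heart, 1.23 ± 0.31 (adjusted p = 0.155) in double-mutant hearts.

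When the sarcomere mean of the array was added to the fit as a covariate, the respiratory genes had medians of 0.02 in double-mutant, -0.04 in Irx3-/-;Irx5+/- and 0.03 in Irx5-/- hearts, all relative to Irx5+/- hearts. Positive differences were then found for 25, 17 and 28 of 47 genes. In that fit 2 genes of the double mutant had an unadjusted p under 0.05 and were higher, and 1 was lower, where 8.21% of all genes had such a p in either direction. None of the 47 (0) passed after adjustment. The muscle-type Cox7a1 and Cox8b had negative values in it, -0.27 and -1.17 in double-mutant hearts. Cox6a2 had 0.46 ± 0.27 there (unadjusted p = 0.11, adjusted p = 0.724 in limma). Atp5k kept the lowest p in double-mutant hearts (unadjusted p = 0.0148, adjusted p = 0.452 in limma). The isoform ratios were not fitted with this covariate.

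Markers of other cell types were read in the same fit. All 15 endothelial and endocardial genes were lower in mean in double-mutant than in Irx5+/- hearts, with a median of -0.73. Of all genes, 43.9% were higher. At an unadjusted p under 0.05 in limma, 12 of the 15 were lower, against 5.56% of all genes. The medians of the 15 were -0.15 in Irx3-/-;Irx5+/- and -0.67 in Irx5-/- hearts. Their mean ran from 9.27 to 10.20 in double-mutant, from 10.04 to 10.52 in Irx3-/-;Irx5+/-, from 9.50 to 9.86 in Irx5-/- and from 10.26 to 10.65 in Irx5+/- arrays. In double-mutant hearts the medians were 0.20 for 7 epicardial genes, -0.15 for 8 genes of cushion mesenchyme, -0.04 for 8 erythroid genes and 0.01 for 6 macrophage genes. Only 4 of the 8 erythroid and 1 of the 6 macrophage genes had means above the array medians. Values near 0 in these 2 lists therefore do not show that those cells were unchanged. Single genes of the epicardial, cushion and erythroid lists stood apart from their medians. Of the epicardial genes 6 of 7 were above 0 in double-mutant hearts (43.9% of all genes were). Among them Tcf21 had 1.36 ± 0.54 and Tbx18 had 0.87 ± 0.35 (adjusted p = 0.298 for both in limma). Of the 8 cushion genes 3 were above 0 there and 5 below. Sox9 had 0.99 ± 0.39 (adjusted p = 0.29) and Postn had -0.44 ± 0.23 (adjusted p = 0.432 in limma). Of the 8 erythroid genes 4 were above 0 and 4 below. The embryonic globin genes Hbb-y and Hba-x had differences of 1.86 ± 1.09 and 0.995 ± 0.63 in double-mutant hearts and of 3.07 ± 1.09 and 1.86 ± 0.63 in Irx3-/-;Irx5+/- hearts (adjusted p = 0.899 and 0.878 in the second group). The part of these cell types in the respiratory values was not tested.

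**Figure D4:**
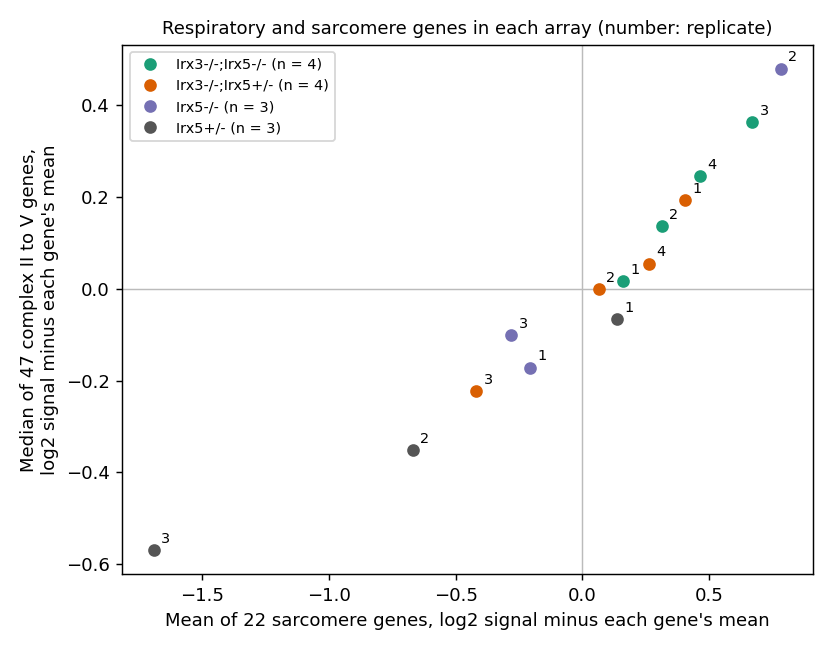
For each of the 14 arrays, the median over the 47 respiratory genes (vertical) against the mean over 22 sarcomere genes (horizontal), both as log2 signal minus each gene's mean over all arrays, with the replicate number beside each point. Irx5+/- replicate 3 lies lowest on both axes (-0.57 and -1.69) and Irx5-/- replicate 2 highest (0.48 and 0.78).

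Other genes of mitochondrial energy metabolism were read from lists of related genes. Of the tricarboxylic acid cycle and its entry enzyme, 15 of 16 listed genes were measured. All 15 had positive differences in double-mutant hearts (43.9% of all genes did), with a median of 0.58. At an unadjusted p under 0.05 in limma, 12 of 15 were higher, against 7.9% of all genes. Pdhb, a subunit of pyruvate dehydrogenase, read 10.99, 10.67, 11.13 and 10.94 in double-mutant hearts and 10.42, 10.31 and 10.11 in Irx5+/- hearts, without overlap, and its difference was 0.66 ± 0.17 (adjusted p = 0.158). Mdh2, the malate dehydrogenase of mitochondria, had a difference of 0.75 ± 0.24 (adjusted p = 0.209). Carriers and kinases that move ATP and phosphate had a median of 0.39 over 8 genes, 5 of them higher at an unadjusted p under 0.05 (7.9% of all genes). Among these the adenine nucleotide translocator Slc25a5 had a difference of 0.84 ± 0.26 and the outer membrane channel Vdac1 one of 0.68 ± 0.20.

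Assembly factors of these complexes, which build but do not form part of them, had a lower median. It was 0.22 over the 31 of 35 listed that were measured, with 25 above 0 (43.9% of all genes were). At an unadjusted p under 0.05 in limma, 5 of 31 were higher, against 7.9% of all genes. Cox17, a copper chaperone for complex IV, read 11.49, 11.63, 11.67 and 11.63 in double-mutant hearts and 11.02, 10.81 and 9.82 in Irx5+/- hearts. These groups did not overlap, and the difference of 1.06 ± 0.28 (adjusted p = 0.163) exceeded that of every complex IV subunit other than Cox7a1 and Cox6a2. Taco1, a translational activator of the mitochondrial gene for subunit 1 of complex IV, had a difference of 0.56 ± 0.21. Of 9 listed genes outside the rule for members, 3 were measured. Cytochrome c (Cycs), the complex IV subunit Ndufa4 and the ATP synthase inhibitor Atpif1 had differences of 0.38, 0.25 and 0.17.

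Regulators of these genes had a median of 0.15 over the 18 of 19 measured, with 11 above 0 (43.9% of all genes were). At an unadjusted p under 0.05 in limma, 5 of 18 were higher, against 7.9% of all genes. Ppargc1a, a coactivator of mitochondrial gene expression, read 10.13, 10.33, 11.12 and 10.69 in double-mutant hearts and 10.29, 9.24 and 8.46 in Irx5+/- hearts. Irx5+/- replicate 1 lay among the double-mutant arrays, as it did for Cox7a1, and the difference was 1.23 ± 0.48 (adjusted p = 0.286). Hif1a, the oxygen-sensitive subunit of a hypoxia factor, had a difference of 0.44 ± 0.19 (adjusted p = 0.333). Among the factors whose motifs were read above, Nrf1 had -0.20 ± 0.11, and Gabpa and Gabpb1 had 0.14 and -0.26. The ERR genes Esrra, Esrrb and Esrrg had 0.15, 0.22 and 0.90.

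**Figure D5:**
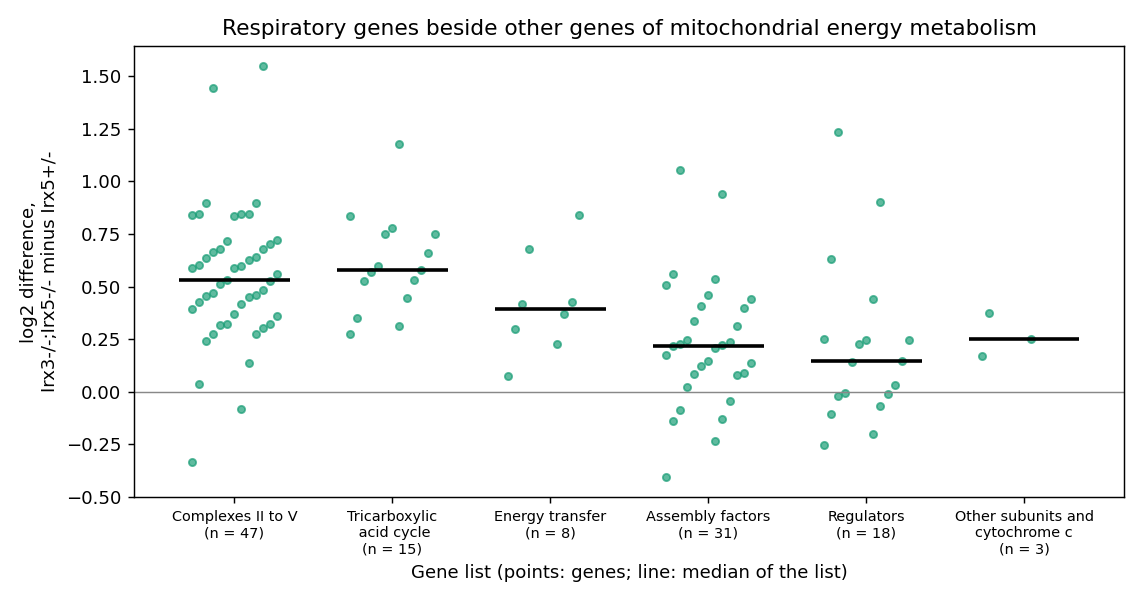
Log2 difference between double-mutant and Irx5+/- hearts for each gene (points) of 6 lists, with a line at the median of the list. Medians are 0.53 for the 47 respiratory genes, 0.58 for the tricarboxylic acid cycle, 0.39 for energy transfer, 0.22 for assembly factors, 0.15 for regulators and 0.25 for Cycs, Ndufa4 and Atpif1.

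Of the 47 genes, 35 had 1 probe set and 12 had several, and in all 12 the probe sets had the same sign between double-mutant and Irx5+/- hearts. The widest range was that of Atp5l, whose 6 probe sets had differences from 0.51 to 0.71. Several of these extra probe sets may lie on near-identical gene copies, so values of such genes are uncertain.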

How the data were processed

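Total RNA of mouse hearts at E12.5 was amplified from 1 ng and hybridised to Affymetrix arrays, 1 array per sample, per the labels' protocols. Per the file headers, the authors ran RMA on all arrays at once in affy, an R package, and deposited log2 values. The headers also give a floor for their own tests, a mean over 3 in some group, and 0 probe sets of the table missed it. Of 28763 probe sets, 21776 carried 1 gene symbol, and the brightest per gene left 19931 genes. Values were used as deposited. Versions of these tools and the annotation build were not given in the sources used here. The number of arrays limits the precision.

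Differences came from limma (version 3.58.1, in R version 4.3.3), where all 14 arrays entered 1 fit of group means, with 10 residual degrees of freedom and Benjamini-Hochberg adjustment over all genes. A gene passed at an adjusted p under 0.05. Isoform ratios were compared with exact 2-sided permutation tests, with intervals from the pooled residual spread. The procedure was tested on simulated data. The members and all gene lists were chosen with earlier results of these data known. Genes given array by array were the 2 with the largest double-mutant difference in each complex, the isoform pairs, the lowest p in each comparison, and up to 2 genes per other list. Other members, the measured subunits that the symbol rule misses and the regulators whose motifs were read are named with single values. Same-numbered replicates of different groups did not deviate together (median correlation -0.06 over 19 pairs), so the numbers were not taken to pair samples. Alternatives were the mean of a gene's probe sets, array centring, quantile normalization, a filter on dim genes, the compared groups alone, a trended robust fit, a replicate block, the sarcomere covariate, and each array left out in turn.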

Additional observations from a re-analysis of the deposited data

Results flagged for a closer look

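In 94 sets of 4 arrays, the 47 genes in each of the groups with 4 arrays, the lowest or highest array was compared with the rest by Dixon's gap ratio at its 95% critical value. Chance gives about 1 such array in 20 sets, and 2 were found. Uqcrq, a small ubiquinone-binding subunit of complex III, read 10.806 in Irx3-/-;Irx5+/- replicate 3, where the other 3 arrays of the group lay between 11.308 and 11.359. Cox8c, the testis isoform of complex IV subunit 8, read 7.259 in Irx3-/-;Irx5-/- replicate 2, where the next array of the group read 7.546 and the highest 7.604.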

How the results depend on the processing

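None of the 47 genes passed in any of the 6 comparisons under any alternative run. The smallest adjusted p tabulated for any of them was 0.0698. For a left-out array, adjusted p was tabulated only for the interaction and comparisons that include the array's group. Averaging a gene's probe sets, centring arrays, quantile normalization, leaving out dim genes, fitting the compared groups alone and a trended robust fit kept every direction and side of the threshold among the results tabulated. So did a replicate block, under which 0 of 47 genes passed; 2 of 14 arrays correlated best with an array of their own number. With the sarcomere mean as a covariate, the medians were 0.0222 in double-mutant, -0.0355 in Irx3-/-;Irx5+/- and 0.0346 in Irx5-/- hearts, all against Irx5+/-. Of the 47 genes, 22, 30 and 19 were then below 0, against 2, 1 and 3 without the covariate. Among the genes given array by array, 19 values changed sign. In double-mutant hearts these were Uqcr10 -0.0246, Cox7a1 -0.27, Atp5g1 -0.0028, Cox6a1 -0.0519, Cox7a2 -0.15 and Cox8b -1.17. In Irx3-/-;Irx5+/- hearts they were Sdhb -0.19, Uqcr10 -0.069, Cox7a1 -0.0544, Atp5g1 -0.13, Cox6a1 -0.0468, Cox7a2 -0.15 and Cox8b -0.55. In Irx5-/- hearts they were Sdhb -0.0763, Uqcr10 -0.0879, Cox7a1 -0.22, Atp5g1 -0.0594, Cox7a2 -0.0812 and Cox8b -0.78. The covariate itself differs between the groups, and the cause of these changes was not tested. Leaving out single arrays moved Sdhb in Irx5-/- hearts between -0.0295 and 0.56 and Cox8b between -0.28 and 1.38. The log2 ratio of Cox8b to Cox8a moved between -0.51 and 0.86 in Irx5-/- against Irx5+/- hearts, between -0.23 and 0.86 in double-mutant against Irx5+/- hearts and between -0.48 and 0.67 in double-mutant against Irx5-/- hearts. The log2 ratio of Cox7a1 to Cox7a2 in double-mutant against Irx3-/-;Irx5+/- hearts moved between -0.0529 and 0.34. With 3 or 4 arrays a group, a gene that did not pass is not shown to be unchanged.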
